A study of Mus musculus with 12 samples.

Results

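Of the 22548 genes measured in sorted mouse hematopoietic stem cells (HSCs), 81 had a log2 expression value of at least 9 in each of the 12 samples. These 81 genes, the members described here, were selected on that value alone, so their high level is the rule and not a result. There were 4 samples of young HSCs (numbered 2 to 5), 5 of aged HSCs (0 and 2 to 5) and 3 of aged HSCs that had received CASIN (1 to 3). CASIN is an inhibitor of the small RhoGTPase Cdc42. Donors were C57BL/6 mice, 2 to 4 months old in the young group and 20 to 26 months old in the aged groups. No genetic change is given for any of the 3 groups, and all cells were kept for 16 h in serum-supplemented HBSS at 3% O2, with 5 µM CASIN in the treated group alone. Each sample was a pool of at least 200 long-term HSCs sorted as Lin-, c-Kit+, Sca-1+, Flk2- and CD34-/low, amplified with a kit made for single cells. The study's methods give a larger number of pooled HSCs for the RNA-seq libraries. The labels do not name the animals behind each sample. The study's methods define biological repeats as experiments done on separate days with new mice.

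HSCs are rare bone marrow cells that renew themselves and give rise to all blood lineages. In most bulk libraries the highest values belong to genes used by every cell, such as those for ribosomal proteins, elongation factors, actin and glycolytic enzymes, and long-term HSCs are known for the surface proteins c-Kit and Sca-1 and for transcription factors such as Meis1, Hlf and Gata2. No member was among the genes listed for these kinds. None of 85 ribosomal protein genes was a member, nor any gene of the lists for translation factors (32 genes), glycolysis (16), actin and tubulin (33), chaperones (28), immediate early genes (30), ferritin, ubiquitin and MHC class I (21) or RNA binding and splicing (37). Members are 0.359% of all genes, so at that share lists of this size would hold few of them. In at least 1 sample, 3 of the ribosomal protein genes and 4 of the translation factors reached 9. These lists hold selected genes of each kind, and the MHC class Ib gene H2-Q4, a member, was not on them. The lists for nuclear non-coding RNAs and for chromatin proteins held 1 member each, the ribosomal RNA precursor Rn45s and the histone chaperone Nap1l1. Actb, which encodes beta actin, ranged from 1.53 to 7.73 over the 12 samples, and Gapdh, a glycolytic enzyme, from 5.71 to 9.04. None of 28 mitochondrially encoded genes was in the table.

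Of 30 HSC and gate markers none was a member and none reached 9 in any sample. Meis1 had the highest mean, with values from 6.54 to 8.53. Kit, the gene of c-Kit, stood above the lowest value of its sample in 4 of 12 samples, as did Ly6a, the gene of Sca-1, with highest values of 6.80 and 1.79. The lists of erythroid, neutrophil and monocyte, B cell, T and NK cell, megakaryocyte and stromal markers held no member either. Tigit, a receptor of T and NK cells that is a member, was not on these lists. Most of their genes stood near the lowest values: the median of the gene means was 1.69 over the 11 T and NK cell genes, with Cd3e at 1.71 and Cd3g at 1.41, and 1.11 over the 16 neutrophil and monocyte genes, with S100a8 at 0.91 and Mpo at 1.23. The exceptions with the highest means were Cd3d, a T cell receptor subunit, at 8.74, and Itgam, the myeloid integrin CD11b, at 8.48. The summed linear level of the neutrophil and monocyte list ranged from 281 to 843 in young, from 427 to 704 in aged and from 423 to 797 in aged CASIN-treated samples, so the groups overlapped. Itgam alone, with a linear level of 177 to 576, made up a median of 76.8% of that sum across samples.

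The deposited values had been quantile normalized, which gives the gene of a given rank nearly the same value in every sample. A value of 9 therefore stood for a rank: 204 to 206 genes, 0.905% to 0.914% of all genes, were at 9 or above in a sample. Over the 12 samples 604 genes reached 9 at least once, of which 303 did so in 1 sample only, 220 in 2 to 11 samples and the 81 members in all 12. Counting the genes above a sample's lowest value gave 6078 to 9673 in young, 11463 to 17621 in aged and 6845, 20013 and 7288 in the aged CASIN-treated replicates 1, 2 and 3. The values hold no read counts, so depth and counting error are not known.

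By the RefSeq annotation (GRCm38.p6), which held 79 of the 81 members, 60 members were protein coding (75.9%, against 89.4% of all matched genes), 15 were long non-coding RNAs (18.99% against 8.01%) and 4 were pseudogenes (5.06% against 1.48%). Gene models with a provisional Gm name made up 10 members, and RIKEN clone names 11. Zinc finger genes named Zfp or Zscan gave 7 members, which is 8.64% of the members against 1.68% of all genes. There were 4 sensory receptor genes: the olfactory receptor Olfr613, the olfactory receptor pseudogene Olfr856-ps1 and the vomeronasal receptors Vmn1r58 and Vmn2r55. Olfactory and vomeronasal receptors detect odours and pheromones in the nose, and their families made up 4.92% and 1.31% of all genes, against 2.47% each of the members. These classes are described without a test.

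Gm17821, annotated as a pseudogene at chr12:67657107-67668997, was the highest gene in each of the 12 samples, with a value of 16.09. A630089N07Rik, a long non-coding RNA at chr16:98062512-98082439, followed. It was at rank 2 in each of the 5 aged samples, at 2, 4, 3 and 3 in the young samples and at 3 in each aged CASIN-treated sample. The next members by mean were Ap1s3, a subunit of the AP-1 clathrin adaptor (mean 14.94), 4930470H14Rik, a long non-coding RNA (14.94), and Zfp488, a zinc finger transcriptional regulator (14.68). Gm17644 (14.31), Olfr613 (14.14), A130077B15Rik (14.10), Grk4, a kinase of G protein-coupled receptors (13.86), and Gm7609 (13.79) completed the first 10. Their ranks stayed between 1 and 15 in all samples. Of all 81 members, 14 were always among the first 20 genes of a sample, 32 among the first 50 and 54 among the first 100. The lowest rank of any member in any sample was 189, for Gm19757 in the aged CASIN-treated replicate 1.

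**Figure D1:**
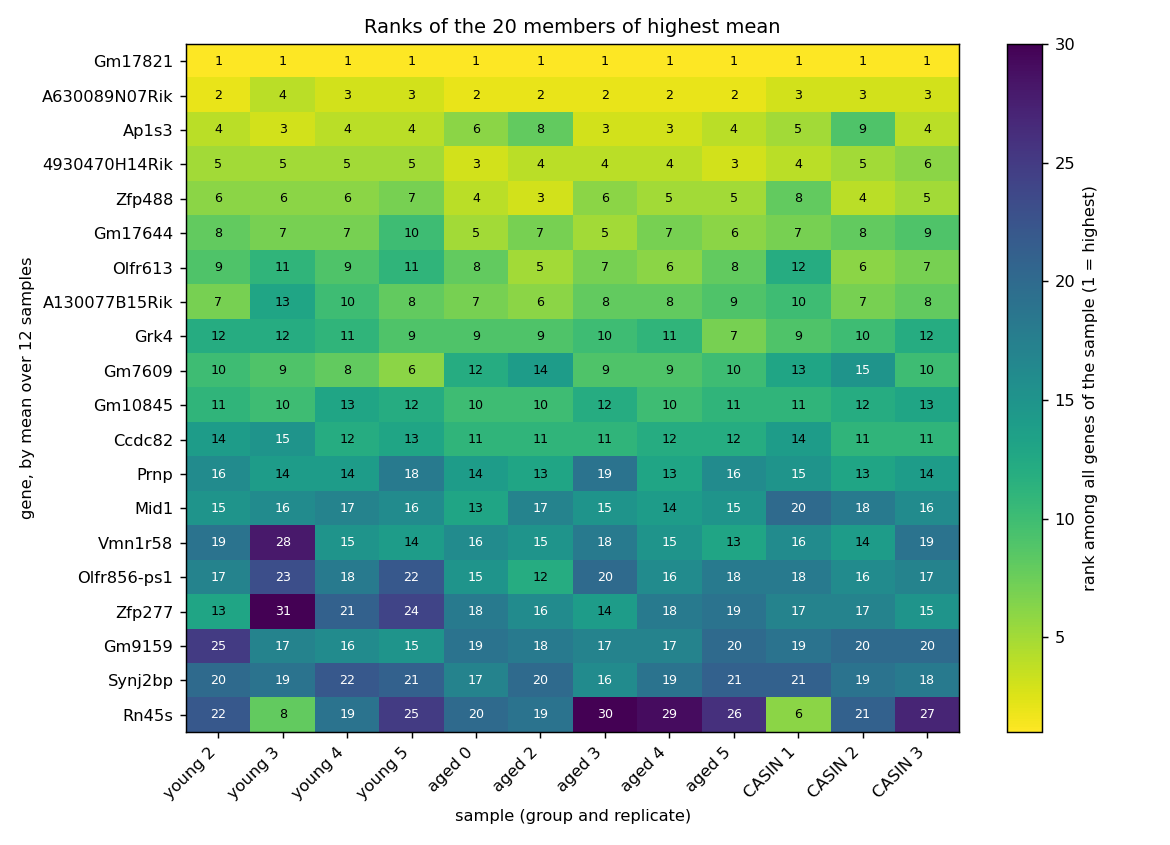
Rank of the 20 members of highest mean (rows) in each of the 12 samples (columns), where rank 1 is the highest of the 22548 genes. Gm17821 was first in every sample, the first 10 rows stay at rank 15 or better, and Rn45s reached ranks 8 and 6 in young replicate 3 and CASIN replicate 1 against 19 to 30 elsewhere.

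Some of the members shared sequence that the rule did not use. The longest GENCODE M21 transcript of each gene was cut into all words of 24 bases, read on both strands; 79 members and 21352 genes of the table had a transcript. Among words that are not simple repeats (at least 10 different triplets), 77 occurred in 7 or more members and joined into 10 stretches of 25 to 44 bases. 3 of these words are printed to stand for these stretches; no base is in capitals, since the whole word is shared.
Word 1, first stretch: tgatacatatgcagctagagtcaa
Word 2, second stretch: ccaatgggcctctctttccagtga
Word 3, held by most members: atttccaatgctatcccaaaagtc
Word 3 was held by more members than any other such word, though only by 11 (13.9%). Of these, 6 held it in the orientation printed and 5 on the reverse strand. It occurred in 63 of all genes (0.295%). Its holders included Maoa, Bard1, Nap1l1, Il2ra and Isg15. Word 2 was found in 9 members and 53 genes, and word 1 in 8 members and 47 genes. In Ap1s3 word 1 lies at chr1:79607212-79607235 and word 2 at chr1:79607256-79607279 (GRCm38, minus strand), both in the 3′ UTR. Word 3 lies in the exons of the long non-coding RNA A130077B15Rik at chr10:122565081-122565104, in reverse orientation. Words of this kind make up the 3′ end of mouse LINE-1 retrotransposons, of which the genome holds very many copies; this is background knowledge, and no repeat annotation was used.

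At least 1 of the 77 words was present in 29 of 79 members (36.7%) and in 237 of 21352 genes (1.11%). Because these words were picked from the members, this count is a description. In 19 of the 29 members the words lay in the 3′ UTR, in 2 (Nap1l1 and Olfr613) in the 5′ UTR, and 8 had a longest transcript that is not annotated as protein coding. The 29 include 6 of the 10 members of highest mean, namely Ap1s3, Zfp488, Olfr613, A130077B15Rik, Grk4 and Gm7609. Gm17821 and A630089N07Rik had none. The median level was 11.34 in the 29 members and 11.11 in the other 50, with a median SD over the 12 samples of 0.368 and 0.378. A set of 1077 words chosen without regard to the members, those not simple and found in 40 or more genes, gave at least 1 word in 40 members (50.6%) against 14.01% of all genes. The share was 29.7% in 64 other genes with a mean of 9 or above and 10.3% in genes with a mean under 1. Runs of 12 CA or TG units showed another order, with 17.7% of members, 16 of the 64 other genes of mean 9 or above and 40.6% of genes with a mean of 6 to 7. The median transcript length was 3759 bases in members and 3671.5 in the 64 other genes of mean 9 or above. It was 1574 in other genes with a mean under 1 and 5040 in those with a mean of 6 to 7. These shares were not adjusted for length. Reads from words held by many genes cannot be told apart by sequence alone, how the authors treated such reads is not given in the sources used here, and their part in the members' values was not tested.

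**Figure D2:**
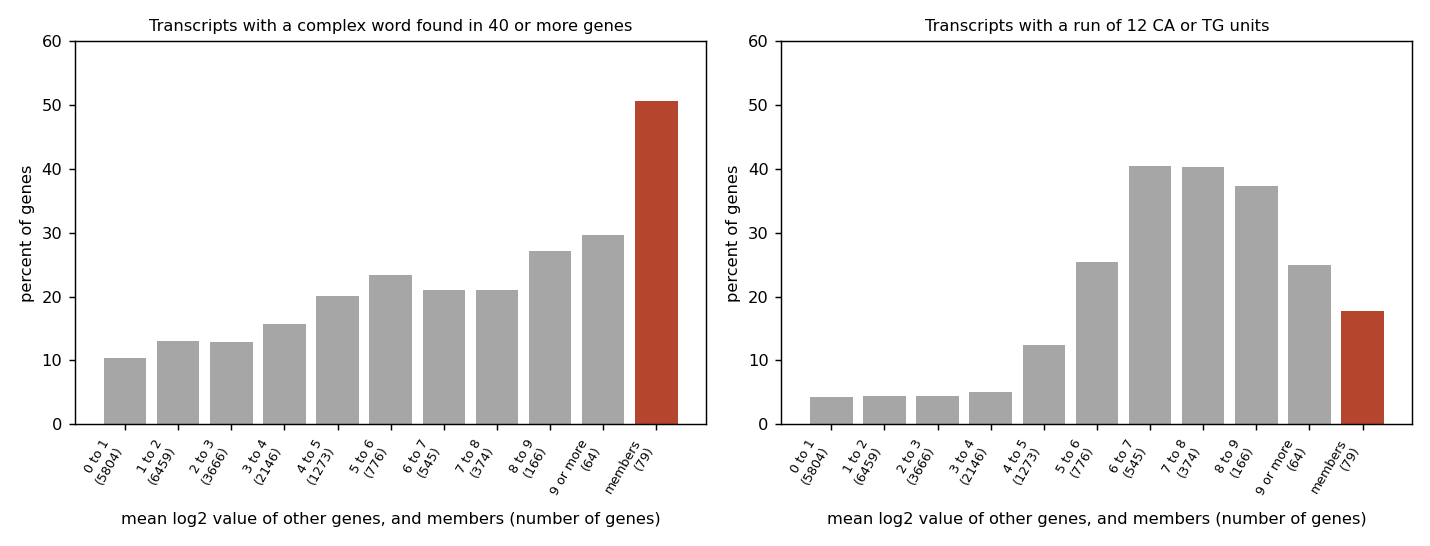
Share of genes (percent, y axis) whose longest transcript holds a complex 24-base word found in 40 or more genes (left) or a run of 12 CA or TG units (right), for genes that are no members by mean log2 value and for the members (last bar), with the number of genes in brackets. The members stand at 50.6% on the left, above the 29.7% of other genes with a mean of 9 or above, and at 17.7% on the right, below them.

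Some members lay close together in the genome. Zfp457, Zfp953 and Zfp65, zinc finger genes of chromosome 13, start at positions 67288137, 67339309 and 67705306, with 32897 and 344734 bases between neighbours. Gm4841 and F830016B08Rik on chromosome 18, the nearest members that did not overlap, were 15472 bases apart. On chromosome 7, Olfr613, Trim12c and Usp17la were separated by wider gaps of 783250 and 503658 bases. No background was counted for such distances. On the X chromosome Gm9159 lies 91321 bases from Jpx, a non-coding RNA of the X inactivation centre. Mid1, a ubiquitin ligase bound to microtubules, holds the long non-coding RNA G530011O06Rik within its span on that chromosome. Whether the counting used strand is not given in the sources used here, so the values of these 2 genes may not be separate. Chromosome 13 held 9 members (11.4%, against 3.70% of all genes) and chromosome 1 held 8 (10.1% against 5.65%).

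Some of the remaining members are grouped below by what each is known to do, and others are not named. The grouping was made with the members in view and no group was set against a background. The first group is ribosomal RNA and protein synthesis. Rn45s, the 45S precursor of ribosomal RNA, varied most of all members (SD 0.877). It was 12.33, 14.14, 12.66 and 12.06 in young, 12.57, 12.66, 11.77, 11.81 and 11.97 in aged and 14.48, 12.47 and 11.93 in aged CASIN-treated replicates. Young replicate 3 and CASIN replicate 1 stood high, and the other 10 samples of the 3 groups overlapped. Ribosomal DNA is present in many copies, so this value does not belong to a single locus. Rpp40, a subunit of RNase P, was 11.32 in aged replicate 0 and from 9.58 to 10.95 elsewhere. Eif2ak2, the kinase PKR, which halts translation on sensing double-stranded RNA, ranged from 9.67 to 10.88.

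Interferon and innate immune genes among the members were Isg15, a ubiquitin-like protein conjugated to targets after interferon, Ifnar1, a chain of the type I interferon receptor, Ifi203, Gm4841, Trim12c and the MHC class Ib gene H2-Q4. Ifi203 was one of the steadiest members, at 10.40 to 10.95 over the 12 samples with an SD of 0.175. Isg15 ranged from 9.41 to 11.12, with ranks between 44 and 140. Trim12c was 11.77, 11.57, 11.12 and 11.06 in young, 10.36, 11.63, 11.32, 10.95 and 11.88 in aged and 9.69, 11.35 and 10.65 in aged CASIN-treated samples. CASIN replicate 1 was low, and the groups overlapped. Other receptors were present too. Il2ra, the alpha chain of the interleukin-2 receptor, had a mean of 10.14, and Tnfrsf10b, a receptor for the death ligand TRAIL, 9.71. Tigit, an inhibitory receptor of T and NK cells, was 11.81, 11.47, 11.32 and 12.23 in young, 11.40, 11.35, 11.47, 11.72 and 11.68 in aged and 10.68, 11.12 and 10.88 in aged CASIN-treated samples. The treated samples were all below the lowest of the others.

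Genes of DNA repair and nucleotide synthesis included Rad1, part of the checkpoint clamp (10.20 to 11.68), Bard1, the partner of Brca1 (10.07 to 11.68), Aplf, a factor of DNA end joining (10.68 to 11.93), and Tyms, thymidylate synthase (10.20 to 11.02). Their groups overlapped in each comparison. Mplkip, an interaction partner of the mitotic kinase Plk1, was 11.40, 11.77, 11.47 and 11.63 in young, 10.29, 11.02, 11.44, 11.47 and 10.58 in aged and 10.38, 10.83 and 11.06 in aged CASIN-treated samples. Its young samples were above the treated ones and overlapped with the aged ones.

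Enzymes of metabolism formed another group. Maoa, monoamine oxidase A, had a mean of 12.04 and a range of 11.53 to 12.33. Cmah, which hydroxylates sialic acid, ranged from 11.27 to 12.06, and Me3, a mitochondrial malic enzyme, from 9.09 to 10.73. Fut8, which adds core fucose to N-glycans, was 10.53, 11.23, 11.93 and 11.40 in young, 12.23, 11.88, 11.81, 11.63 and 12.14 in aged and 12.06, 11.81 and 11.77 in aged CASIN-treated samples. Young replicate 2 was the lowest and the groups overlapped. Fmo5, a flavin-containing monooxygenase, was 11.17, 10.93, 10.58 and 10.63 in young, 10.58, 10.68, 10.63, 10.67 and 11.32 in aged and 9.81, 10.56 and 9.14 in aged CASIN-treated samples. The treated samples were below all others, though replicate 2 only just.

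The steadiest members after Gm17821, whose value did not vary, were Zfp457 (SD 0.165), Synj2bp, a mitochondrial outer membrane protein (0.166), Ifi203 (0.175), Gm10845 (0.193) and Zfp937 (0.195). Zfp457, the member of lowest mean, stayed between 9.38 and 10.02. Of the largest SDs, 5 followed Rn45s: Trim12c (0.635), Pik3r5, a regulatory subunit of PI3K gamma (0.616), 4930511M06Rik (0.604), Rpp40 (0.593) and Gm19757 (0.592). Pik3r5 was at 11.17 in aged replicate 0 and 11.27 in CASIN replicate 1, and between 9.37 and 10.65 in the others. Over all members the SD across 12 samples had a median of 0.371, with quartiles of 0.285 and 0.457. The range was under 1 in 26 members, between 1 and 2 in 51 and 2 or more in 4.

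**Figure D3:**
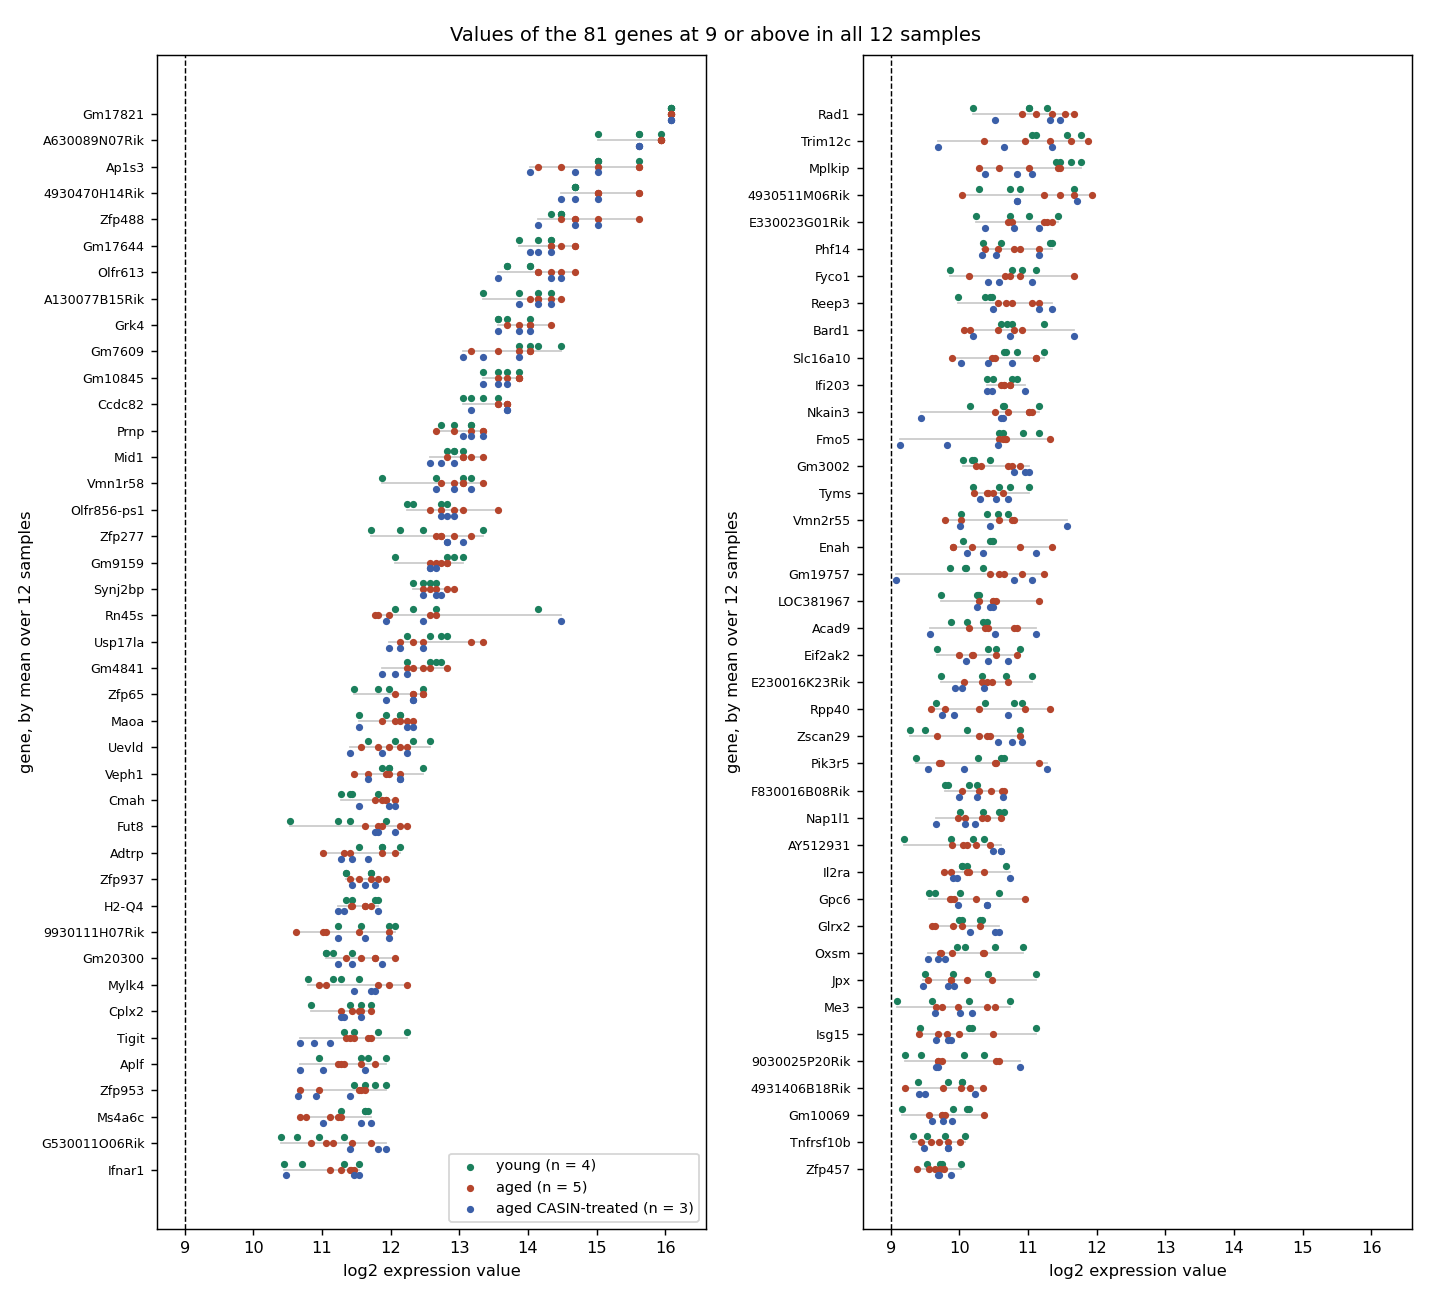
Log2 value (x axis) of each of the 81 members in young (green), aged (red) and aged CASIN-treated samples (blue), each point 1 sample, with a grey line from the lowest to the highest value and a dashed line at the threshold of 9. The range is under 2 units in all but 4 members; Rn45s, with points at 14.14 and 14.48, has the widest range.

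Within groups the members' SD had a median of 0.295 in young, 0.289 in aged and 0.282 in aged CASIN-treated samples. In genes above the lowest value in all samples that are no members, it was 1.08, 1.21 and 1.11. The 67 other genes with a mean of 9 or above had medians of 0.674, 0.373 and 0.631. A bound on the lowest value keeps out genes that vary, so these differences follow from the rule in part and were not tested. Among the 80 members other than Gm17821, the largest of the 3 SDs was found in young for 29, in aged for 20 and in aged CASIN-treated samples for 31. Young replicate 2 held the lowest value of 16 of these members, CASIN replicate 1 of 13 and young replicate 3 of 12. The 5 aged samples held between 2 and 6 lowest values each. Equal values were credited to the first sample in the order young, aged and treated, so these counts depend in part on that order.

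**Figure D4:**
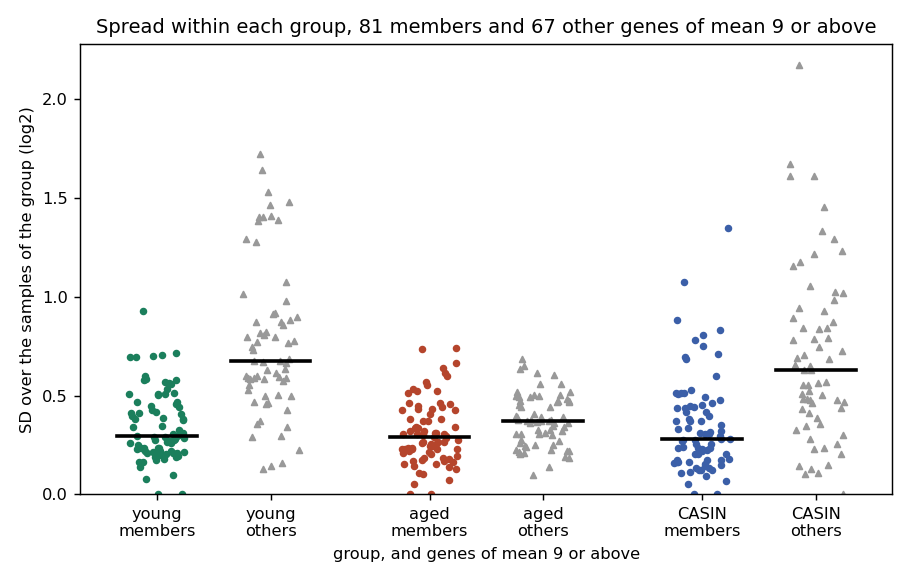
SD of each gene over the samples of a group (log2, y axis) for the 81 members (coloured) and the 67 other genes with a mean of 9 or above (grey triangles); bars are medians. The members' medians are 0.295, 0.289 and 0.282, and those of the other genes 0.674, 0.373 and 0.631.

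The rule was also applied to part of the samples and read in the rest. Chosen on 11 samples, it gave 81 to 87 genes, of which the 81 members, 93.1% to 100% of those chosen, were at 9 or above in the sample left out. Of all genes, 0.905% to 0.914% were. The genes that stay at 9 or above are the members by definition, so the count of 81 was fixed and is no separate support. For whole groups, 0.417% of all genes were at 9 or above in all young samples, 0.568% in all aged and 0.461% in all treated samples. Chosen on aged and CASIN-treated samples, it gave 93 genes, of which 12 fell below 9 in at least 1 young sample, among them Runx2, at 7.90, 10.24, 9.32 and 6.30 in young. Chosen on young and aged samples, it gave 89, of which 8 fell below in a treated sample. Each of the 8 was under 9 in CASIN replicate 1. Chosen on young and CASIN-treated samples, it gave 82, of which 1 fell below in aged samples. That gene was Kcnq1ot1, the long antisense RNA of an imprinted domain. Kcnq1ot1 was 15.61, 15.93, 15.93 and 15.93 in young, 15.93 in each treated sample, and 0.07, 0.02, 0.23, 0.22 and 0.16 in aged samples, which is the lowest value of each.

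The ranks of some of the first members depended on whether Kcnq1ot1 was ranked, while Gm17821 was at rank 1 in every sample either way. At the top of the list a rank is worth between 0.11 and 0.59 log2 units (0.16 from rank 1 to 2, 0.59 from 3 to 4). 4930470H14Rik was 14.68 in each young sample, 15.61, 15.03, 15.03, 15.03 and 15.61 in aged and 15.03, 14.68 and 14.48 in treated samples, so young and aged did not overlap. With Kcnq1ot1 left out of the ranking it was at rank 4 in each young sample and at 3, 4, 4, 4 and 3 in aged, and the groups overlapped. A630089N07Rik was then at rank 2 in all samples but young replicate 3, where it was at rank 3, so its aged and treated samples no longer differed. On the linear scale the members made up 40.04% to 41.04% of the summed value of a young sample, 44.7% to 45.1% of an aged and 39.8% to 40.1% of a treated sample. Gm17821 alone made up 5.64% to 5.70%, and Kcnq1ot1 4.11% to 5.10% in young and 5.06% to 5.10% in treated samples. Ranked without Kcnq1ot1, the members' share was 43.5% to 43.8% in young, 43.3% to 43.7% in aged and 43.4% to 43.6% in treated samples, and the groups overlapped.

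Each comparison asked whether age or CASIN moved a gene, by limma over all genes, with Benjamini-Hochberg adjustment over 22548 genes. No member passed an adjusted p of 0.05 in any of the 3 comparisons, of which the 2 against aged samples share the aged samples. The background was 4 genes (0.0177%) for young against aged, 5 (0.0222%) for aged CASIN-treated against aged and 0 (0%) for young against aged CASIN-treated. The rule held every sample of a member at 9 or above, so nothing is read from these counts. At an unadjusted p under 0.05 there were 0, 1 and 2 members, beside 5.33%, 4.4% and 4.29% of all genes. The smallest adjusted p of a member by limma was 0.764 for young against aged, 0.948 for aged CASIN-treated against aged and 0.9995 for young against aged CASIN-treated. In limma the variance of each gene is drawn towards a value common to all genes (prior variance 1.062), which is larger than the variance of any member over the 12 samples. A variance trend in limma gave 17, 10 and 14 members with an unadjusted p under 0.05 and again none after adjustment. The share of all genes under this trend is not given here, so nothing is read from these counts.

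The differences between groups were small, which follows from the rule in part. The rule held every sample of a member at or above the threshold, so genes that fall low in any group were kept out. Nothing is therefore read from the size of the differences, and the part played by the rule was not tested. The median log2 fold change of the members was -0.10 for young against aged, -0.12 for aged CASIN-treated against aged and -0.039 for young against aged CASIN-treated, with medians of -0.017, -0.038 and 0.092 over all genes. Centred on the genes above the lowest value in all samples, the members' medians were 0.35, 0.23 and 0.064, so their sign depended on the scaling. Ranked without Kcnq1ot1, the first 2 medians were -0.056 and -0.041, and the third was 0.054 without CASIN replicate 1. No member differed by more than 1 log2 unit between group means, and 73, 74 and 67 of the 81 differed by less than 0.5. The 95% interval lay within 1 log2 unit on both sides for 33, 34 and 23 members; for the others a difference of 1 unit is not excluded by the interval.

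For young against aged the largest differences upward were Rn45s at 0.64 (SE 0.61), Mplkip at 0.61 (SE 0.37) and Ms4a6c, a membrane-spanning protein of myeloid cells, at 0.54 (SE 0.32). Downward they were Fut8 at -0.67 (SE 0.36), Gm19757 at -0.66 (SE 0.44) and 4930470H14Rik at -0.58 (SE 0.32). Without young replicate 3 and CASIN replicate 1 the remaining Rn45s values of all 3 groups lay between 11.77 and 12.66. Gm19757 was 10.10, 10.34, 10.08 and 9.87 in young and 10.65, 11.23, 10.91, 10.57 and 10.45 in aged samples. These groups did not overlap, nor did those of 4930470H14Rik, Olfr613 and Reep3, a protein of the endoplasmic reticulum: 4 members (4.94%), all lower in young, beside 4.29% of the 2143 genes above the lowest value in all samples. Ranked without Kcnq1ot1, a setting added after the data were seen, the groups of Olfr613 and 4930470H14Rik overlapped, and 3 members did not overlap (beside 4.2% of the background): Gm19757 and Reep3, lower in young, and Ms4a6c, higher.

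For aged CASIN-treated against aged, Rn45s (0.81, SE 0.66), Glrx2, a mitochondrial glutaredoxin (0.52, SE 0.34), and G530011O06Rik (0.47, SE 0.38) had the largest values. Fmo5 (-0.94, SE 0.41), Trim12c (-0.66, SE 0.50) and Nkain3, a partner of the sodium pump (-0.64, SE 0.42), had the smallest. Fmo5 had a 95% interval of -1.85 to -0.02 and an unadjusted p of 0.0451 in limma, with an adjusted p of 0.948. Groups did not overlap for 4 members (4.94%, beside 3.83% of the background): Fmo5, Tigit and A630089N07Rik were lower and AY512931 was higher in treated samples. Ranked without Kcnq1ot1, 2 members did not overlap (beside 3.69%), Tigit and AY512931.

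For young against aged CASIN-treated, Fmo5 (0.99, SE 0.43), Trim12c (0.82, SE 0.52) and Tigit (0.81, SE 0.37) were largest, and G530011O06Rik (-0.89, SE 0.40), Zscan29, a zinc finger gene (-0.80, SE 0.48), and Gm3002 (-0.70, SE 0.35) were smallest. G530011O06Rik was 10.41, 10.63, 10.95 and 11.32 in young and 11.40, 11.93 and 11.81 in treated samples, with aged samples from 10.83 to 11.72 across both. Its unadjusted p was 0.049 and that of Fmo5 0.0435, each with an adjusted p of 0.9995 in limma. Groups did not overlap for 9 members (11.1%, beside 5.93% of the background), 5 of them higher and 4 lower in young, and again 9 (beside 5.88%) when ranked without Kcnq1ot1. This count was not tested.

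**Figure D5:**
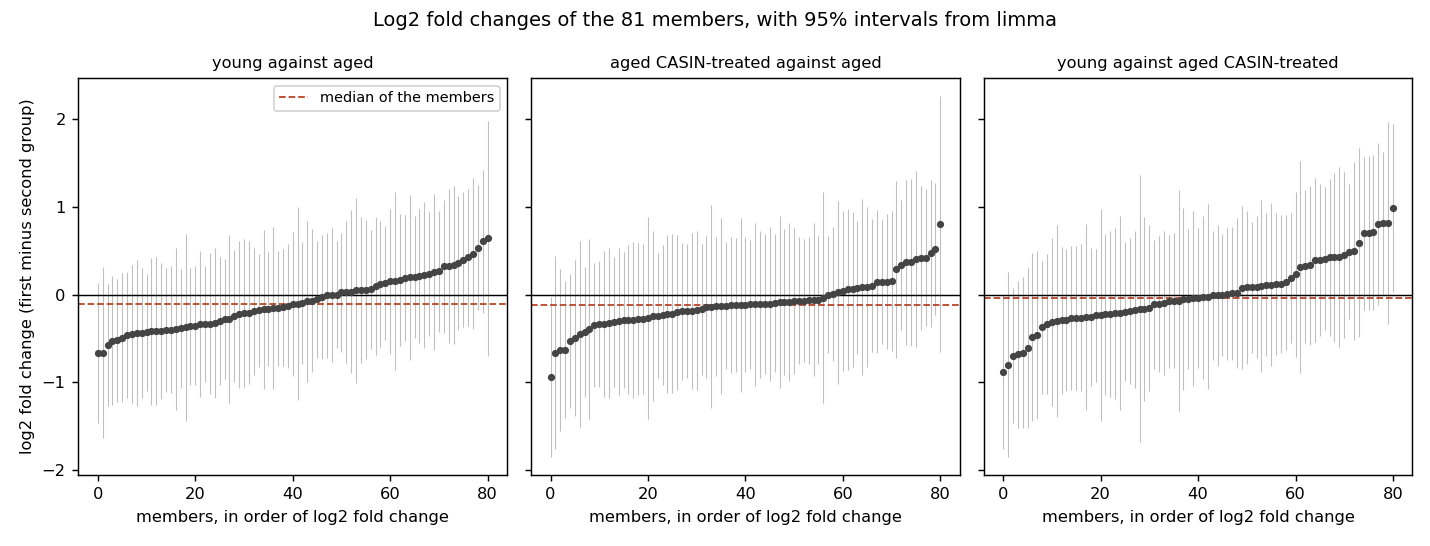
Log2 fold change (y axis, first group minus second) of the 81 members in order of size, for the 3 comparisons, with 95% intervals from limma; the dashed line is the members' median. All points lie within 1 unit of 0, and nearly all intervals cross 0. The rule kept out genes that fall below the threshold in any sample, so the small size follows from it in part.

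At the threshold, the members of lowest minimum were Gm19757 (9.08, in CASIN replicate 1), Me3 (9.09, young replicate 2), Fmo5 (9.14, CASIN replicate 3), Gm10069 (9.16, young replicate 4) and AY512931 (9.20, young replicate 3). Just outside stood Itga4, an integrin of HSC homing (8.99 in young replicate 5), Smn1, the survival motor neuron gene (8.97 in young replicate 3), Fbxl12os (8.96 in CASIN replicate 1), Synrg (8.88 in young replicate 2) and Wdr92 (8.79 in young replicate 2). The means of these 5 genes were 9.80 to 10.06 and those of the 5 members above 9.81 to 10.56.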

How the data were processed

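The 12 RNA-seq samples were 4 young, 5 aged and 3 aged CASIN-treated. The authors trimmed the reads, mapped them with TopHat to the mm10 RefSeq genes, ran Cufflinks and deposited quantile-normalized log2 values for 22548 genes. The step to log2 values is not described and gives no depth. The members and gene lists were chosen with earlier results of these data known.

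Values were used as deposited. Members have a lowest value of at least 9 over 12 samples. Ranks average ties; linear values are 2 to the log2 value minus 1. Differences were tested with limma 3.58.1 in R 4.3.3 (3 groups in 1 fit, two-sided, Benjamini-Hochberg over all genes). The fit was also run on each gene's values shuffled over the samples, with known shifts added to some genes. The results of that run are not given here. Named genes are the 10 members of highest mean, the 6 of smallest and 6 of largest SD, the 3 largest and 3 smallest fold changes per comparison, any member with an adjusted p under 0.05, and the 5 genes on each side of the threshold; other members named by role were chosen after their values were seen. Words of 24 bases were counted in GENCODE M21 transcripts (GRCm38, the build of mm10), gene classes taken from RefSeq GRCm38.p6, with Python 3.11.15, pandas 2.3.3 and numpy 2.4.6. Alternatives were thresholds of 8 and 10, centring, a pseudocount of 0.1, a mean of at least 3, limma-trend, array weights, fits of 2 groups, a replicate block, leaving out each sample, and, added after seeing the data, ranking without Kcnq1ot1.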

Additional observations from a re-analysis of the deposited data

Results flagged for a closer look

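Of 64 sets of samples examined (the named members in young and in aged samples, where these varied), 5 had 1 sample far from the rest by Dixon's criterion, which chance gives in about 1 of 20 sets. Fmo5 was 11.32 in aged replicate 5, with the next value at 10.68. Gm10069 was 10.36 in the same sample, next to 9.79. Ms4a6c was 11.27 in young replicate 4, below 11.63. Ap1s3 was 15.61 in young replicate 3 against 15.03 in the other 3 young samples, and Zfp488 was 14.33 in young replicate 5 against 14.48 in the others; each of these gaps is 1 rank. Without aged replicate 5 and with all other samples kept, no member of any comparison passed an adjusted p of 0.05 by limma.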

How the results depend on the processing

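The depth of the libraries is unknown, and quantile normalization hides any shift that all genes share. No member passed an adjusted p of 0.05 by limma in any comparison, with all samples or under any of the 20 alternatives run per comparison. The rule gave 127 genes at a threshold of 8 and 50 at 10. It gave 81 to 87 genes with 1 sample left out, 84 when centred, of which 78 were members, and the same 81 when ranked without Kcnq1ot1. Centring moved the members' median log2 fold change to 0.35 for young against aged, 0.23 for aged CASIN-treated against aged and 0.064 for young against aged CASIN-treated, and the median SD of the aged CASIN-treated group to 0.532; the cause was not tested. Ranking without Kcnq1ot1 gave -0.056 and -0.041 for the first 2 comparisons, and lowered the members whose groups did not overlap from 4 to 2 for aged CASIN-treated against aged. Leaving out 1 sample gave medians of -0.14 to -0.060, -0.12 to -0.10 and -0.068 to 0.054; the third was 0.054 without CASIN replicate 1. The same-numbered samples showed little shared deviation (correlations of -0.15 to 0.13 over 2143 genes). With so few samples per group, these values cannot decide whether the numbers pair the samples. With the replicate block 0 members passed in each comparison, and the median log2 fold changes were -0.095, -0.10 and -0.0030. Without a block, the 0, 1 and 2 members with an unadjusted p under 0.05 became at most 17, 10 and 14 under limma-trend and as few as 0 in each comparison under other alternatives. Shares of all genes under these alternatives are not given here, so nothing is read from these counts. With 1 sample of a group left out, the median SD was 0.275 to 0.318 in young, 0.251 to 0.292 in aged and 0.162 to 0.264 in aged CASIN-treated samples.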
